A study of Mus musculus with 6 samples.

Results

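Neuromuscular junction genes are the genes that build and maintain the synapse between motor neuron and muscle fibre. The set held 10 genes, taken by symbol from the promoter window table, and all 10 were present among its 49366 genes. They are the acetylcholine receptor subunits Chrna1, Chrnb1, Chrnd, Chrne and Chrng, the receptor tyrosine kinase Musk with its co-receptor Lrp4 and its activator Dok7, the receptor-clustering scaffold Rapsn, and the acetylcholine-degrading enzyme Ache. The assay was ATAC-seq, in which a transposase inserts adapters into open chromatin, on nuclei positive for Pcm1, a protein that marks muscle fibre nuclei. All nuclei came from hindlimbs of male C57BL/6J mice, injected at 8 weeks of age and studied 28 days later. An adeno-associated vector carried a short hairpin RNA against Yap (Yap-shRNA) into muscles of one limb and a hairpin against LacZ, a bacterial gene (LacZ-shRNA, the control), into those of the other limb, so both groups received AAV6. Each of the 3 replicates per group pooled 4 gastrocnemius and 4 tibialis anterior muscles. The labels name Pcm1 as the only sorting criterion, and they do not say which pools of the 2 groups share animals. The p-values below measure the spread between these pools.

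In adult muscle, a few nuclei beneath each nerve terminal transcribe the receptor and its partners, while most nuclei along the fibre keep these genes low. Motor nerves release agrin, agrin binds Lrp4, and Lrp4 activates Musk together with Dok7, after which rapsyn gathers receptors under the terminal. Before and shortly after birth the receptor holds the gamma subunit encoded by Chrng, which is later replaced by the epsilon subunit encoded by Chrne, and loss of the nerve brings Chrng back. E-boxes, bound by myogenic factors such as MyoD and myogenin, and the N-box, bound by GABP and other Ets factors, are known control elements of receptor genes. A pool of nuclei gives an average, so fewer synaptic nuclei and less open chromatin in each of them cannot be told apart.

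The sequences of 5 promoters, of receptor subunits and Musk, are shown as description. The levels and group comparisons below come from read counts and not from these sequences. Each holds the 250 bases before the transcript start of the RefSeq table (GRCm38.p6), 5′ to 3′, and the Musk intronic region is the centre of the peak described later. Capitals mark the myogenic E-box CAGCTG, the N-box core CCGGAA and the TEAD motif ACATTCC, searched on both strands.
Chrng promoter, chr1:87205561-87205810, plus strand: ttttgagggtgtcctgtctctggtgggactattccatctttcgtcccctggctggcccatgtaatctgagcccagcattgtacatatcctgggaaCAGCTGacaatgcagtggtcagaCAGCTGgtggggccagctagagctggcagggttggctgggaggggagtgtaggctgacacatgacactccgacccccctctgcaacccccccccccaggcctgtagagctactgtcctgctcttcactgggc
Chrne promoter, chr11:70619195-70619444, minus strand: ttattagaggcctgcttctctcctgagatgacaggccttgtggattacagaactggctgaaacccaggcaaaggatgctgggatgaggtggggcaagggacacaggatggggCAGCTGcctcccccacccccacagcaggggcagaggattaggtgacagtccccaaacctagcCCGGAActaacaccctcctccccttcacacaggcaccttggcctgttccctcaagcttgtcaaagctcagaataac
Chrna1 promoter, chr2:73580339-73580588, minus strand: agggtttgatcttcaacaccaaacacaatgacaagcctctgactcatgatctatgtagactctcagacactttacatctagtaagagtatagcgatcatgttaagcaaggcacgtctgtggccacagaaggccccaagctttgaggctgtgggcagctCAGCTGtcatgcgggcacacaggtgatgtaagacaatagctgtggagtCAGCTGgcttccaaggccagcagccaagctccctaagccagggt
Chrnb1 promoter, chr11:69795938-69796187, minus strand: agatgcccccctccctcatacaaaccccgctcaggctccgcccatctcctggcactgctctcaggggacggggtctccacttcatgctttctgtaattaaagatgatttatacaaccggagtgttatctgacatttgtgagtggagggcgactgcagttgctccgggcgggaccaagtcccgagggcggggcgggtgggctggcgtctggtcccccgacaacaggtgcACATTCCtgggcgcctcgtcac
Musk promoter, chr4:58285712-58285961, plus strand: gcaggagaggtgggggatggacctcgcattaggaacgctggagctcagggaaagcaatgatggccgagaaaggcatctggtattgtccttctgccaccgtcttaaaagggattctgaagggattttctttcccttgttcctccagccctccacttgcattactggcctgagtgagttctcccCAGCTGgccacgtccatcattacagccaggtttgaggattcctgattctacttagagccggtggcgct
Musk intronic peak, central 300 bases, chr4:58351372-58351671, plus strand: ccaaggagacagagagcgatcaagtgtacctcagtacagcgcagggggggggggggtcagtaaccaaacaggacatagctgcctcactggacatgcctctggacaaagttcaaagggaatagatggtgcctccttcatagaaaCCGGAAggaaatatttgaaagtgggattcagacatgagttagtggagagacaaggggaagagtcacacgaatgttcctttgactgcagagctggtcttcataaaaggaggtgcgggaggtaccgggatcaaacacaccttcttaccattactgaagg

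Promoters of 7 of the 10 genes were in the RefSeq table, and a search window covered 250 bases before and 50 after the start. Chrng held 2 CAGCTG matches, which began at positions -155 and -132 from the start. Chrne held 1 CAGCTG match at -138 and 1 CCGGAA match at -76. The fetal and the adult subunit promoter therefore both carried CAGCTG, and of the pair Chrne alone carried CCGGAA in this window. Chrna1 had 2 CAGCTG matches and Musk had 1, while Chrnb1 had none and held ACATTCC at -22. Dok7 and Ache held none of these 3 strings. Over 32851 promoters of that length, CAGCTG was present in 16.3%, CCGGAA in 14.9% and ACATTCC in 3.85%, and the broader E-box CANNTG, which includes CAGCTG, in 72.3%. Base composition separated the genes as well: the Ache promoter was 74.0% G and C with 30 CpG, while Chrng had 59.3% with 2 CpG and Chrne 57.3% with 1 CpG, against a median of 52.7% and 7 CpG. The RefSeq start of Chrng lies inside the gene as GENCODE draws it (chromosome 1, 87204657 to 87212694), and the printed stretch lies within an intron of a longer transcript.

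Muscle fibre identity was checked first. Of 12 fibre marker windows 7 held a peak. The median level of the 12 was 18.7 CPM per kb of window, against 4.45 CPM per kb over all windows. CPM are counts scaled by library size and TMM factors. Windows of 40 marker genes of fibres and other cells had no count of 0 in any sample, with 8 as the lowest count. Schwann cell markers, which would come with terminal Schwann cells, held a peak in 2 of 8 windows at a median of 5.63 CPM per kb. For satellite cells it was 1 of 5, for fibroblasts 1 of 6, for endothelial cells 0 of 5 and for leukocytes 0 of 4. Window totals ran from 3326803 to 10319467 counts and peak totals from 2588520 to 6871176, with LacZ-shRNA replicates 1 and 2 the shallowest. LacZ-shRNA replicate 1 had the lowest CPM of the 6 samples in 5 of the 10 junction gene windows.

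Among the junction genes, Dok7, Chrnb1, Lrp4 and Rapsn had more accessible promoters than Musk and the other receptor subunits. A promoter window reaches 1 kb on both sides of each transcript start of a gene, and windows differ in length, so levels are compared per kb. Dok7 was highest, at 20.2 ± 3.16 CPM per kb (SD, n = 6), and lay above Chrnb1 in 6 of 6 samples. Chrnb1 (14.9 ± 2.08), Lrp4 (13.9 ± 1.33) and Rapsn (13.5 ± 2.07) followed, and these neighbours overlapped across samples, with Chrnb1 above Lrp4 in 5 of 6 and Lrp4 above Rapsn in 4 of 6. Musk came next at 8.60 ± 1.63 CPM per kb, below Rapsn in 6 of 6 samples and with no overlap. Chrnd (7.79 ± 0.964), Chrna1 (7.59 ± 0.561) and Chrng (7.46 ± 0.997) could not be ordered beyond their spread, since Chrnd lay above Chrna1 in 3 of 6 samples and Chrna1 above Chrng in 4 of 6. Chrne (6.03 ± 0.846) and Ache (5.72 ± 1.04) were lowest on this scale.

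The last positions depend on how the window is measured. The window of Chrne overlaps that of 4930544D05Rik and the window of Ache overlaps that of Gm42456, and the counts of such windows lack reads. Of 3932 overlapping windows 48.9% held at least 0.95 of the counts in their own peaks, against 99.98% of 5562 windows that overlap no other. Only 2198 of 4048 bp of the Chrne window and 1728 of 3729 bp of the Ache window lie in no other window. Per kb of those unshared bases, Chrne stood at 11.1 and Ache at 12.3 CPM per kb, above Musk. A peak wholly inside the Ache window held 143 counts in LacZ-shRNA replicate 1, where the window itself held 77. Ratios of Ache window to that peak ran from 53.8% to 96.6% over the 6 samples, so the Ache window is an uncertain measure.

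**Figure D1:**
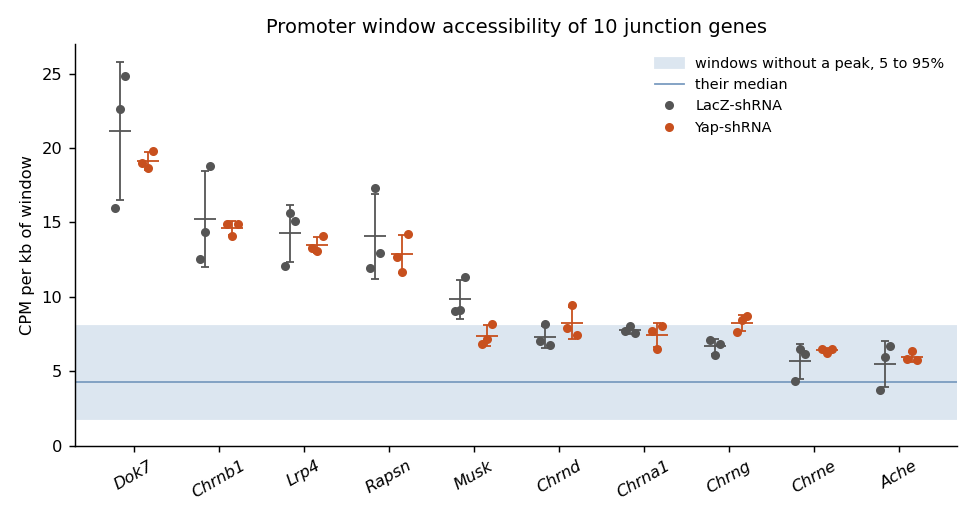
Level of each promoter window in CPM per kb (linear axis) for 3 LacZ-shRNA and 3 Yap-shRNA samples (points), with mean and SD (bars), and the 5 to 95% range of windows that hold no peak (band, 1.81 to 8.01 CPM per kb). Dok7, Chrnb1, Lrp4 and Rapsn lie above the band in every sample, and Chrna1, Chrng, Chrne and Ache lie in or near it. Chrne and Ache are drawn per kb of the whole window, shared bases included.

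Peaks, the regions the authors called as accessible, were also unevenly placed. They were present in the windows of Chrnb1, Musk, Lrp4, Dok7, Rapsn and Ache, that is 6 of 10, against 26.3% of all windows. No peak was called in the windows of Chrna1, Chrnd, Chrne or Chrng, the remaining 4 receptor subunits. Those 4 windows were still at the upper end of windows without a peak. Of 31605 windows that hold no peak and overlap no other window, 93.3% were lower than Chrna1, 94.1% lower than Chrnd and 92.7% lower than Chrng. For Chrne, whose window overlaps another and lacks reads, it was 81.7% per kb of window and 99.3% per kb of unshared bases. A window without a called peak is therefore not a window without reads. Fibre marker windows without a peak ran from Myh1 at 4.10, in a window that overlaps another, to Atp2a1 at 61.0 CPM per kb. Dok7, the highest junction gene, stood at 20.2. Lack of a called peak thus did not mean a low level.

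The fetal and the adult receptor subunit were then compared within each sample. Chrng (ENSMUSG00000026253) counts were 134, 65 and 204 in LacZ-shRNA replicates 1, 2 and 3 and 257, 309 and 257 in Yap-shRNA replicates 1, 2 and 3. Chrne (ENSMUSG00000014609, chromosome 11, 70614883 to 70619216) had 97, 82 and 218 counts in LacZ-shRNA and 258, 272 and 227 in Yap-shRNA. Chrng had more reads than Chrne in LacZ-shRNA replicate 1 and Yap-shRNA replicates 2 and 3, and fewer in the other 3 samples. After division by window length, the log2 of Chrng over Chrne was 0.71, -0.089 and 0.15 in the LacZ-shRNA replicates. In the Yap-shRNA replicates it was 0.24, 0.43 and 0.42. Chrng was the higher of the pair in 5 of 6 samples, by 0.31 ± 0.27 on the log2 scale (SD, n = 6), which did not pass an exact two-sided sign-flip test (p = 0.0625, where 0.03125 is the smallest 6 samples can give), and the order reversed to -0.57 (exact p = 0.03125) when each count was divided by the unshared length. Without any division by length the mean was 0.065 (exact p = 0.5625, n = 6). These sign-flip tests take the 6 pools as independent, although pools of the 2 groups may share animals. No order of the fetal and the adult subunit can therefore be read from these windows.

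No shift in this balance between the groups was detectable with 3 samples in each. The mean log2 ratio of Chrng over Chrne was 0.26 ± 0.41 in LacZ-shRNA and 0.36 ± 0.11 in Yap-shRNA (n = 3 each, SD), a difference of 0.11 with an exact two-sided permutation p of 0.7. The 3 Yap-shRNA values lay between the lowest and the highest LacZ-shRNA value, and 3 samples against 3 cannot give a p under 0.1. The difference was 0.33 without LacZ-shRNA replicate 1 (exact p = 0.2) and -0.065 without LacZ-shRNA replicate 2 (exact p = 0.8). It does not depend on window length, because length cancels between groups.

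**Figure D2:**
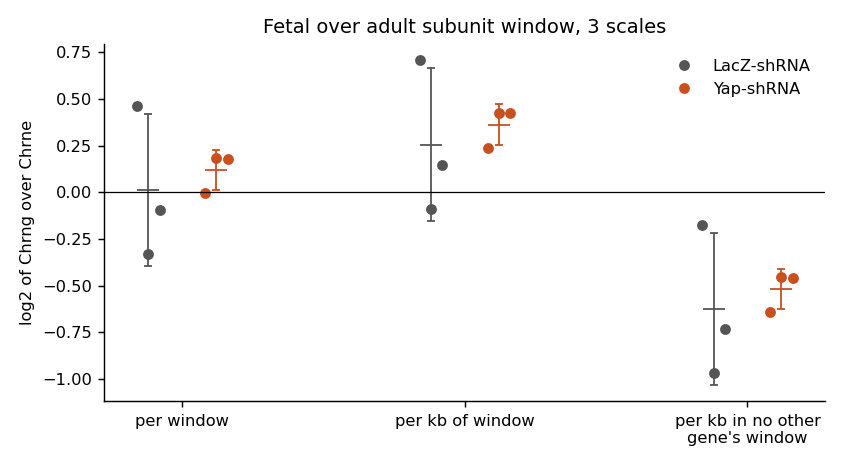
Log2 of Chrng over Chrne counts per sample (points) with mean and SD by group (bars), on 3 scales: per window, per kb of window and per kb in no other gene's window. The mean of all 6 samples moves from 0.065 to 0.31 and to -0.57, while the 2 groups overlap on each scale.

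The main comparison asked whether accessibility at these promoters differed between Yap-shRNA and LacZ-shRNA. By the quasi-likelihood test of edgeR, 0 of the 10 windows passed a Benjamini-Hochberg adjusted p of 0.05, where 0.0223% of all windows passed. Voom and DESeq2 also called 0, with DESeq2 giving an adjusted p for all but 4 of the 10. An unadjusted p under 0.05 was seen for 2 windows, Chrng and Musk, against 4.9% of all windows (1.9% higher and 3.01% lower), and the same 2 were the windows whose groups did not overlap, against 10.1%. The median log2 fold change of the 10 was -0.065 against -0.014 over all windows, with 6 below and 4 above 0, where 52.7% of all windows were below 0.

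Among the receptor subunits, Chrng had the smallest p-value. Its window held 24.2, 20.8 and 23.2 CPM in LacZ-shRNA and 26.2, 28.8 and 29.8 CPM in Yap-shRNA. All 3 Yap-shRNA samples lay above all 3 LacZ-shRNA samples. The log2 fold change was 0.30 (SE 0.15, 95% interval 0.0037 to 0.59), with an unadjusted edgeR p of 0.0473 and an adjusted p of 0.946, short of the threshold over all windows. It ran from 0.25 to 0.36 over the alternatives tried.

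Chrne, the adult subunit, held 17.5, 26.3 and 24.8 CPM in LacZ-shRNA and 26.3, 25.3 and 26.3 CPM in Yap-shRNA. The groups overlapped, and LacZ-shRNA replicate 1 alone lay well below the other 5 samples. Its log2 fold change of 0.19 (SE 0.15, adjusted p 0.951 in edgeR) was 0.032 without that replicate. Chrnd, the delta subunit of both receptor forms, held 15.7, 18.3 and 15.2 CPM in LacZ-shRNA and 17.7, 21.1 and 16.6 CPM in Yap-shRNA. Its groups overlapped and its log2 fold change was 0.20 (SE 0.16, adjusted p 0.951 in edgeR).

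Chrna1 encodes the alpha subunit that binds acetylcholine. Its window held 15.4, 16.02 and 15.2 CPM in LacZ-shRNA and 15.5, 13.0 and 16.1 CPM in Yap-shRNA, so the samples nearly coincided apart from Yap-shRNA replicate 2. The log2 fold change was -0.058 (SE 0.17, 95% interval -0.40 to 0.28, adjusted p 0.985 in edgeR), and it was 0.0013 with library size alone. Chrnb1, the beta subunit and the subunit with the most accessible window, held 51.7, 59.3 and 77.5 CPM in LacZ-shRNA and 61.3, 58.2 and 61.4 CPM in Yap-shRNA. Its LacZ-shRNA samples spread widely around the Yap-shRNA samples, and its log2 fold change was -0.073 (SE 0.14, adjusted p 0.98 in edgeR).

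In the agrin receptor pathway, Musk (ENSMUSG00000057280, chromosome 4, 58285960 to 58374303) showed the largest difference of the 10 windows. It held 20.1, 20.2 and 25.1 CPM in LacZ-shRNA and 15.1, 15.9 and 18.1 CPM in Yap-shRNA. Each Yap-shRNA sample lay below each LacZ-shRNA sample. The log2 fold change was -0.44 (SE 0.16, 95% interval -0.76 to -0.12), with an unadjusted edgeR p of 0.00908 and an adjusted p of 0.946, which does not pass. It stayed negative under each alternative tried, from -0.51 to -0.30, and was -0.38 with library size alone.

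Lrp4, the agrin receptor, held 49.0, 63.4 and 61.4 CPM in LacZ-shRNA and 54.0, 53.1 and 57.4 CPM in Yap-shRNA. Dok7, which drives Musk to dimerise, held 68.7, 97.7 and 107 CPM in LacZ-shRNA and 82.0, 80.4 and 85.5 CPM in Yap-shRNA. For Rapsn the values were 48.1, 69.5 and 52.1 CPM in LacZ-shRNA and 51.1, 46.9 and 57.3 CPM in Yap-shRNA. The Yap-shRNA samples of these 3 genes fell within or beside the wider range of LacZ-shRNA samples. Their log2 fold changes were -0.077 for Lrp4, -0.14 for Dok7 and -0.11 for Rapsn, each with an SE of 0.14, and edgeR adjusted p of 0.977, 0.954 and 0.966. Ache held 13.9, 22.1 and 25.1 CPM in LacZ-shRNA and 21.6, 23.7 and 21.6 CPM in Yap-shRNA. LacZ-shRNA replicate 1 was again the lowest in this window, and the log2 fold change of 0.12 (SE 0.17, adjusted p 0.968 in edgeR) became -0.11 without it. In the peak wholly inside the Ache window, reported after its values were seen, that replicate held 39.2 CPM and LacZ-shRNA replicate 2 was lowest at 31.8. The log2 fold change of that peak was -0.13 (SE 0.13, adjusted p 0.873 in edgeR), opposite in sign to the window.

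**Figure D3:**
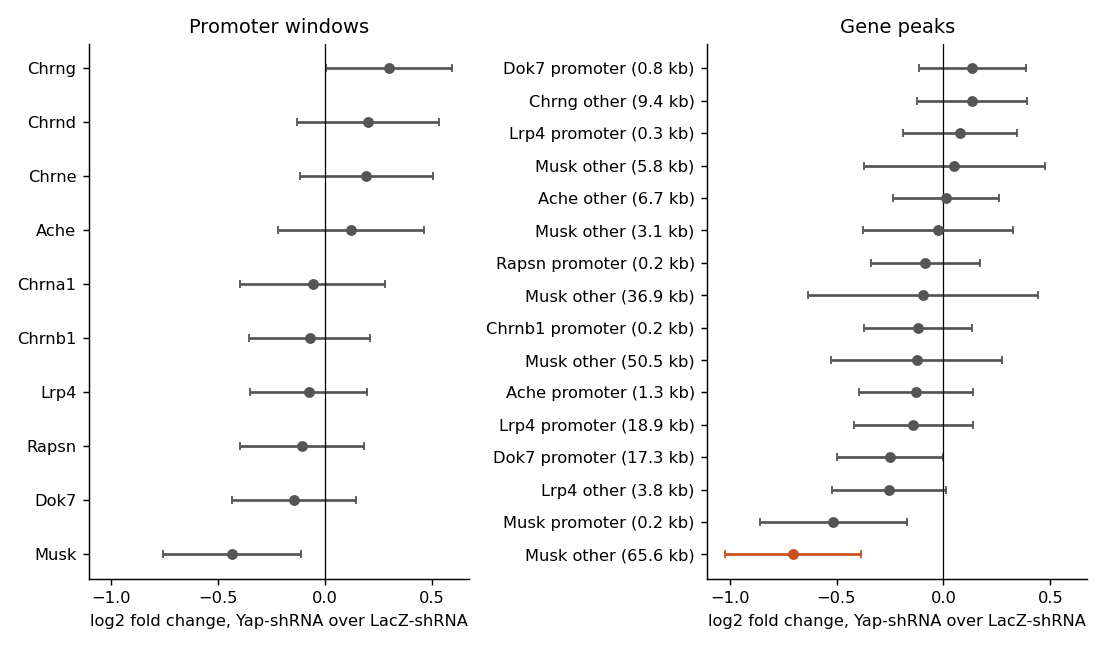
Log2 fold change of Yap-shRNA over LacZ-shRNA with its 95% interval for the 10 promoter windows (left) and the 16 gene peaks (right, named by gene, by whether the peak overlaps the promoter window, and by distance of its centre from the 5′ end). The intronic Musk peak, in orange, is the 1 feature past the adjusted threshold, and the intervals of Chrng and Musk windows lie to one side of 0.

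Peaks gave a finer view than the windows. Within the 10 genes, 1 kb around them or within 1 kb of their transcript starts lay 16 peaks, in 7 genes, of which 8 overlapped a promoter window. In edgeR's quasi-likelihood test 1 of the 16 passed, as a lower peak, against 0.571% of all peaks called lower. An unadjusted p under 0.05 was reached by 3, all lower, where 5.31% of all peaks were lower at that p. Groups did not overlap in 4 of the 16, all lower, against 6.76% of all peaks. The median log2 fold change was -0.11 over the 16 and -0.0026 over all 36097 peaks, with 11 below and 5 above 0, where 50.5% of all peaks were below 0.

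The peak that passed lies in an intron of Musk (chromosome 4, 58351085 to 58351957, GRCm38), with its centre 65.6 kb from the 5′ end of the gene. It held 22.7, 27.6 and 26.7 CPM in LacZ-shRNA and 16.7, 15.8 and 14.6 CPM in Yap-shRNA. Every Yap-shRNA sample was below every LacZ-shRNA sample. Accessibility fell from a mean of 25.7 ± 2.59 CPM to 15.7 ± 1.08 CPM (n = 3 each, SD), a log2 fold change of -0.70 (SE 0.16, 95% interval -1.02 to -0.38, adjusted p 0.0176 in edgeR), or 0.614 of the control level. The call was lost with DESeq2 (adjusted p 0.0593) and with library size alone (-0.56, adjusted p 0.0946). It was also lost without LacZ-shRNA replicate 2 or 3 or any 1 Yap-shRNA replicate (with adjusted p 0.0524 to 0.101), and over all alternatives the adjusted p ran from 0.00393 to 0.101.

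Sequence features of that region were examined, since the printed central stretch holds a G run and an N-box core. The peak held 2 CAGCTG, 1 CCGGAA and 1 ACATTCC match, where 37.2%, 23.1% and 7.54% of 35982 regions of 873 bp centred on peaks hold each string. Its longest run of G alone or C alone was 13 G, and runs of A or T were not measured. Among all peaks, those with a G or C run of 15 or more were called in 68 of 405 cases (16.8%, all lower). With a run of 10 to 14 it was 16 of 1558 (1.03%, all lower), and with a shorter run 137 of 34019 (0.403%, of which 120 lower). The part of the run in the Musk result was not tested. With offsets on GC content the Musk peak was still called (adjusted p 0.0229 in edgeR). Those offsets use the share of G and C in a whole peak, so they do not test the run.

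The promoter peak of Musk (chromosome 4, 58285682 to 58286541) shares its reads with the Musk window and is no independent measurement. It held 20.5, 18.7 and 20.9 CPM in LacZ-shRNA and 13.1, 13.6 and 15.9 CPM in Yap-shRNA. The groups lay apart, and the log2 fold change was -0.51 (SE 0.17, p 0.00411 in edgeR, 0.219 after adjustment), short of the threshold over all peaks. The 4 other Musk peaks, all intronic, had groups that overlapped and log2 fold changes of -0.027, 0.051, -0.096 and -0.13, in order of distance from the 5′ end. Their 95% intervals together reached from -0.63 to 0.47, and the estimate of the promoter peak lay inside those of the peaks at 36.9 and 50.5 kb. With library size alone those 4 values were all above 0, but so was the median of all peaks, at 0.14 against -0.0026 in the main fit. The promoter peak and the most distant peak stayed below 0 on that scaling.

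**Figure D4:**
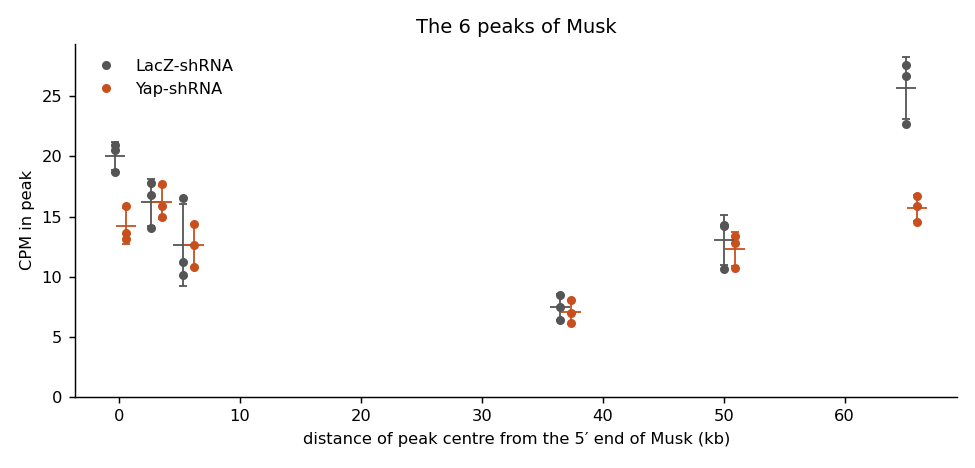
CPM in each of the 6 Musk peaks (points are samples, bars are mean and SD of 3) against the distance of the peak centre from the 5′ end in kb. LacZ-shRNA and Yap-shRNA samples separate at the promoter peak (0.152 kb) and at the peak 65.6 kb away, and overlap at the 4 between.

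The gene peaks with the highest CPM, not divided by peak width, belonged to Dok7 and Ache. Peaks ran from 551 to 3262 bp in width, so this is no order of accessibility per kb. The peak over the first start of Dok7 (chromosome 5, 35055970 to 35059231) held 68.5, 75.2 and 82.8 CPM in LacZ-shRNA and 81.8, 89.2 and 78.7 CPM in Yap-shRNA, with overlapping groups and a log2 fold change of 0.14 (SE 0.12, adjusted p 0.845 in edgeR). Its longest run of G alone or C alone was 15 bases. A second Dok7 peak, at a start 17.3 kb into the gene (35073079 to 35075061), held 67.6, 77.7 and 82.9 CPM in LacZ-shRNA and 63.0, 62.4 and 67.3 CPM in Yap-shRNA. There the groups just failed to overlap, with a log2 fold change of -0.25 (SE 0.12, p 0.0479 in edgeR, adjusted p 0.554). The other peak with groups apart, named after its values were seen, lies at a second start of Lrp4 (chromosome 2, 91475824 to 91476971), with a log2 fold change of -0.14 (SE 0.14, adjusted p 0.862 in edgeR). The peak over the 3′ end of Ache also covers the promoter of Ufsp1, and its log2 fold change was 0.012 (SE 0.12, adjusted p 0.994 in edgeR), of either sign over the alternatives. The peak assigned to Chrng lies beyond its 3′ end, in the promoter of Eif4e2, and so does not bear on the Chrng promoter.

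In the wider junction programme no promoter window passed the threshold. Of 25 ligand, matrix and signalling partner genes, 0 passed in edgeR, and the median log2 fold change was 0.059. At an unadjusted p under 0.05, 0 were higher and 1 lower, against 1.9% and 3.01% of all windows. Peaks were present in 19 of these windows. The gene with the smallest p was Nrg1, which encodes neuregulin, at -0.34 (SE 0.14, p 0.0187 in edgeR, adjusted p 0.946), with Yap-shRNA samples below all LacZ-shRNA samples. Next came Erbb4, a neuregulin receptor, at -0.32 (SE 0.17, p 0.0607 in edgeR), whose groups overlapped. Both windows overlap that of another gene, so their counts are uncertain.

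Windows of 10 transcription factor genes, with Ets, GABP and myogenic factors among them, held a peak in 9 cases. The list was not limited to factors particular to synaptic nuclei. None of the 10 passed in edgeR, and 0 had an unadjusted p under 0.05, against 4.9% of all windows. The median log2 fold change was 0.07. Myf6, a myogenic factor of adult fibres, had the smallest p at -0.25 (SE 0.14, p 0.0882 in edgeR). Myog, which encodes myogenin and is induced by denervation, was at 0.19 (SE 0.14, p 0.187 in edgeR), from 31.4 ± 1.55 CPM in LacZ-shRNA to 35.9 ± 3.82 CPM in Yap-shRNA (SD, n = 3 per group), with the groups just apart.

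Genes that respond to denervation were counted because Chrng is among the genes that nerve loss restores. Of 12 windows 0 passed in edgeR, and the median log2 fold change was -0.061. At an unadjusted p under 0.05, 1 was higher and 0 lower, against 1.9% and 3.01% of all windows. Myh8, the perinatal myosin heavy chain, was the higher one at 0.34 (SE 0.16, p 0.0427 in edgeR), with overlapping groups. Dach2, a transcriptional corepressor, was at -0.34 (SE 0.19, p 0.0774 in edgeR). The list therefore held single genes on both sides of 0.

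Neuronal nicotinic receptor subunits, the paralogues used mainly outside muscle, gave a reference for the muscle subunits. Their windows held a peak in 2 of 11 cases, against 1 of 5 for the muscle subunits, and their median level was 6.45 CPM per kb. Chrna10 was highest at 16.9 CPM per kb, above Chrnb1, and Chrna4 followed at 9.40. All 5 muscle subunits lay within the range of the neuronal ones, which ran from 4.25 to 16.9 CPM per kb. Of the 11 neuronal subunits 0 passed in edgeR, and the median log2 fold change was 0.013. At an unadjusted p under 0.05, 0 were higher and 2 lower, against 1.9% and 3.01% of all windows. Those 2 were Chrna7 at -0.39 (SE 0.16, p 0.019 in edgeR) and Chrnb3 at -0.47 (SE 0.20, p 0.0241 in edgeR), both with Yap-shRNA below LacZ-shRNA in every sample.

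**Figure D5:**
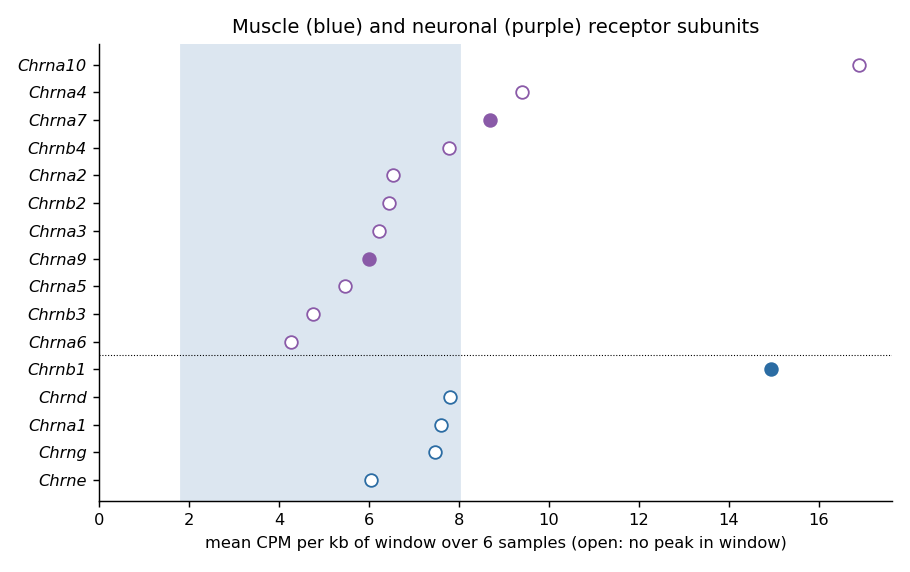
Mean level of each receptor subunit window over 6 samples, in CPM per kb on a linear axis, for muscle (blue) and neuronal (purple) subunits, filled where the window holds a peak, over the 5 to 95% range of windows without a peak (band). Chrnb1 (14.9), Chrna10 (16.9), Chrna4 (9.40) and Chrna7 (8.68) stand above the band, and the other muscle subunits lie inside it. Chrne is drawn per kb of its whole window, and per kb of unshared bases it stood at 11.1, above the band.

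Markers of other cells were summed per sample to see whether they moved with the groups. Endothelial marker windows summed to 29.2 to 32.2 CPM per kb in LacZ-shRNA and 27.0 to 27.4 in Yap-shRNA, without overlap, with Kdr at -0.59 (SE 0.17, p 0.00116 in edgeR) and Tie1 at -0.37 (SE 0.18, p 0.045 in edgeR). The other 3 of the 5 endothelial windows lay above 0, with Pecam1 at 0.16, Cdh5 at 0.13 and Tek at 0.0041, which was also the median log2 fold change of the list. Fibroblast windows summed to 23.1 to 26.0 and 25.02 to 29.9 CPM per kb, with Col1a1 at 0.39 (SE 0.14, p 0.00982 in edgeR) and Col3a1 at 0.34 (SE 0.16, p 0.039 in edgeR). Of the 6 fibroblast windows 3 lay above 0, Fn1 at 0.21 among them, and 3 below it, with Pdgfra at -0.25, Dcn at -0.26 and Lum at -0.12, and the median log2 fold change was 0.046. Muscle fibre windows summed to 244 to 339 and 254 to 294 CPM per kb, with Mylpf at -0.28 and Ckm at -0.23. The windows of Mylpf, Ckm, Col3a1, Fn1, Pdgfra and Pecam1 overlap those of other genes. Their counts, and sums that include such windows, are therefore uncertain. Schwann cell windows summed to 38.6 to 45.9 and 43.6 to 45.7, satellite cell windows to 36.4 to 43.2 and 38.0 to 43.8, and leukocyte windows to 21.1 to 26.7 and 24.9 to 25.5 CPM per kb. The genes with the smallest p were Cdh19 (log2 fold change -0.56) and Ngfr (0.21) among Schwann cell markers, Calcr (-0.37) and Cdh15 (0.13) among satellite cell markers, and Csf1r (0.32) and Ptprc (-0.30) among leukocyte markers. None of the 40 marker windows passed in edgeR, and 6 of them had an unadjusted p under 0.05, where 4.9% of all windows did. The part of any of these cells in the Musk and Chrng values was not tested.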

How the data were processed

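ATAC-seq libraries of Pcm1-positive nuclei, 3 per group, were analysed from the read counts per promoter window and per peak that the authors deposited. Per the labels and the submitters' processing notes, reads were aligned to GRCm38 with BWA 0.7.17 and SAMtools 1.8, peaks were called with MACS 1.4.2-1 and counts were made with featureCounts 1.5.0. The deposited counts are whole numbers without normalization, and rows with a mean under 10 had been removed. The design text names cardiomyocytes, whereas the sample labels name skeletal muscle and were followed. Windows were rebuilt from GENCODE as 1 kb to each side of every transcript start, and reads in windows shared between genes were found to be missing (21.0% of windows overlap another).

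The quasi-likelihood test of edgeR 4.0.16 (R 4.3.3) was fitted to the whole tables on TMM-scaled counts without covariates, and p-values were adjusted by Benjamini-Hochberg with a threshold of 0.05. CPM are TMM-normalised. Chrng and Chrne were compared per kb with a pseudocount of 0.5. On simulated counts, the test recovered 77% of 200 windows changed by 1 on the log2 scale and 9.5% of those changed by 0.5, and 74.5% and 8% for peaks. Counts of peak reads are not independent molecules, and intervals from the fit cover the spread between samples.

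The members and the other gene lists were chosen with earlier results of these data known. All members are named, with the 2 genes of smallest p in each other list and the 2 highest neuronal subunits. Of the gene peaks, the 3 highest in CPM and the 3 of smallest p are named. Results were recomputed with DESeq2 1.42.0, voom in limma 3.58.1, edgeR's likelihood-ratio test, library size alone, loess offsets on abundance, rows of mean count 50 or more, the highest 1% removed, a replicate block and each sample left out. Offsets on GC content and the length without shared bases were added after seeing the data.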

Additional observations from a re-analysis of the deposited data

How the results depend on the processing

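Of the 10 junction gene windows 0 passed under each of the 15 alternatives, and the directions of Chrnd, Chrne, Chrng, Musk and Lrp4 held under all of them. The direction of Chrna1 reversed with library size alone (0.0013) and without Yap-shRNA replicate 2 (0.031). Without LacZ-shRNA replicate 3 that of Chrnb1 (0.13) and Dok7 (0.0053) reversed, without LacZ-shRNA replicate 2 that of Rapsn (0.044), and without LacZ-shRNA replicate 1 that of Ache (-0.11). Over the fits without 1 sample, Chrnd ran from 0.086 (Yap-shRNA replicate 2 left out) to 0.27, Chrne from 0.032 (LacZ-shRNA replicate 1 left out) to 0.29, Chrng from 0.25 to 0.35, Musk from -0.51 to -0.30 (LacZ-shRNA replicate 3 left out) and Lrp4 from -0.19 (LacZ-shRNA replicate 1 left out) to -0.018 (LacZ-shRNA replicate 2 left out), with -0.022 when LacZ-shRNA replicate 3 was left out. In the same fits Chrna1 ran from -0.12 to 0.031, Chrnb1 from -0.22 to 0.13, Dok7 from -0.32 to 0.0053, Rapsn from -0.19 to 0.044, Ache from -0.11 to 0.36 and the 3′ Ache peak from -0.046 to 0.066. The peak at the 3′ end of Ache reversed with the GC offsets (-0.016). It also did so when LacZ-shRNA replicate 2 (-0.046), Yap-shRNA replicate 2 (-0.017) or Yap-shRNA replicate 3 (-0.019) was left out. The count of gene peaks past the threshold was 1, and 0 with DESeq2 and with library size alone. Leaving out 1 sample gave from 0 to 1, with the intronic Musk peak between -0.78 and -0.66. Leaving out LacZ-shRNA replicate 1 raised the calls from 0 to 1 among muscle fibre markers (Atp2a1, log2 fold change -0.38) and from 0 to 1 among fibroblast markers (Fn1, 0.47), both named after their values were seen. The other lists stayed at 0. The level of Chrng over Chrne was -0.57 per unshared kb and from 0.23 to 0.39 without 1 sample. Its difference between groups was from -0.065 to 0.33 without 1 sample, negative without LacZ-shRNA replicate 2. Apart from the unshared length and the sample left out, the cause of these changes was not tested. Using peaks inside the Chrng and Chrne windows could not be run, since there are none.

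Deviations of same-numbered samples correlated at 0.19, -0.12 and 0.092 over windows and 0.015, -0.093 and -0.14 over peaks. Differently numbered samples ran from -0.26 to 0.20 over windows, a similar spread. With 3 samples per group, these values cannot decide whether the numbers pair the samples. With a replicate block the junction windows called stayed at 0 and the gene peaks called at 1 (Musk, -0.71, edgeR adjusted p 0.0199), and the paired difference of Chrng over Chrne was 0.11 (exact sign-flip p 0.75, where 0.25 is the smallest 3 pairs can give). On simulated counts made from these samples, 9.5% of window changes and 8% of peak changes of 0.5 on the log2 scale were recovered.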
